A study of Mus musculus with 2 samples.

Results

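The 45 genes described here make up the ATF4 arm of the integrated stress response together with the serine, one-carbon, amino acid transport and tRNA charging genes that ATF4 is known to serve. They were listed by name from the pathway, at a time when earlier results of these data were known, so counts over them are a description and no independent evidence. A gene counted as measured when a probe of the array matched its RefSeq accession. Of the 45 genes, 44 were matched, by 55 probes, and the probe used for each of the 44 passed the scanner's flag for a signal well above background on WT and on Mef2d KO, as did those of 16187 named genes in all (the tested genes below). Pycr1 had no matched probe and is not analysed here.

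The samples were whole retinas of mice at postnatal day 14, taken out with forceps, 1 of wild-type (WT) genotype and 1 of the genotype named Mef2d KO, a knockout of the transcription factor gene Mef2d. Each was read on 1 one-colour Agilent array with Cy3-labelled RNA. Neither group had any further treatment in the labels, which also leave out the strain, the sex, the number of animals pooled, the deleted part of Mef2d and the cells in which it was deleted. With 1 array per group there is no replicate check and no test, so every value below compares those 2 arrays and not the genotypes.

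In the integrated stress response, kinases such as PERK and GCN2 phosphorylate the initiation factor eIF2, which lowers general translation while favouring translation of the ATF4 mRNA. ATF4 pairs with C/EBP proteins and other partners at a composite DNA element and turns on genes that make, import and charge amino acids. CHOP, ATF3 and TRIB3 act downstream and modulate its output, and PPP1R15A brings a phosphatase to eIF2. In the retina, serine synthesis is known as a task of Mueller glia, and the pathway is known to respond to protein misfolding and to mitochondrial stress in photoreceptors. An array reads RNA and not the ATF4 protein.

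The composite element, called CARE, was searched in RefSeq promoter windows of build GRCm38.p6, from 250 bases before to 50 bases after a gene's start, as the letters TGATGNAA on both strands. At least 1 window held it for 12 of the 37 members with a window, or 32.4%, against 4.51% of the 27025 genes of the table. The stretches below are among those of measured members with a match before the start. They were picked by that match, so having it in common is no result about these members. The list holds genes that ATF4 is known to serve, so its higher share is no independent evidence either. Vldlr, which was lower on the Mef2d KO array, is among those shown. Each is written 5′ to 3′ on the gene's strand with the match in capitals.
Atf3: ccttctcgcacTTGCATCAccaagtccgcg
Chac1: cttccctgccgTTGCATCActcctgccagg
Slc7a11: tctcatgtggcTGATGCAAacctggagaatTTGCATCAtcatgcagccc
Asns: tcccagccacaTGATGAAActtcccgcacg
Gars: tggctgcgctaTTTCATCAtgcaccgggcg
Tars: caggagtcccgTTGCATCAgctggtt
Vldlr: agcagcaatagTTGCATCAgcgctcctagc

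The Atf3 stretch lies at chr1:191183425-191183454 on the minus strand, with its match beginning 110 bases before the start. That of Chac1 lies at chr2:119351038-119351067 on the plus strand, 193 bases before the start, and that of Slc7a11 at chr3:50443642-50443690 on the minus strand, with matches 66 and 47 bases before it. The Asns stretch, at chr6:7693214-7693243 on the minus strand, has its match 23 bases before the start. Those of Gars (chr6:55037960-55037989) and Vldlr (chr19:27216809-27216838) lie on the plus strand, 30 and 200 bases before the start, and that of Tars (chr15:11399659-11399684) on the minus strand, 15 bases before it. The Vldlr window is 1 of that gene's windows, further along the gene than its first. In Trib3, Yars and Iars the letters stood after the start, and in Pycr1 103 bases before it. The windows of Shmt2, Mthfd2, Atf4 and Ddit4 did not hold these letters. The palindromic CRE letters TGACGTCA stood in the window of 1 member, Ppp1r15a, and in 2.03% of all genes. A match is a match of letters and says nothing of binding.

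Levels are log2 of the scanner's processed signal minus the 75th percentile of the same array, so a level of 0 is the signal at that percentile. A difference is the level on the Mef2d KO array minus that in WT. The error written as ± comes from the scanner's own estimate of each spot's error. It covers neither animals nor dissections, and it was about 0.20 for most members.

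Most members stood a little higher on the Mef2d KO array. Of the 44 measured genes 35 had a positive difference (79.5%), against 48.8% of all 16187 named genes, and 9 a negative one, against 51.2%. The median difference was 0.23, against -0.006 over all named genes. At least 1.5-fold higher were 4 members, Shmt2, Atf3, Mthfd2 and Atf4, where 2.08% of all named genes passed that fold. At least 1.5-fold lower were 2 members, Vldlr and Ddit4, where 5.44% did. The other 38 lay within 1.5-fold. At 2-fold, 1 member was higher (0.618% of all named genes) and 0 lower (1.74%). Beyond 2 errors of the scanner model stood 9 members on the higher side (20.5%, against 3.97% of all named genes) and 2 on the lower side (4.55%, against 7.36%). Scaling each array on its median instead moved the median of all named genes to 0.17. The median of the members was then 0.405, with 40 of 44 differences positive against 77.4% of all named genes, 9 members at least 1.5-fold higher (4.35% of all named genes) and 1 lower (3.23%). With normexp background correction 3 members were at least 1.5-fold higher (1.31%) and 1 lower (1.8%).

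**Figure D1:**
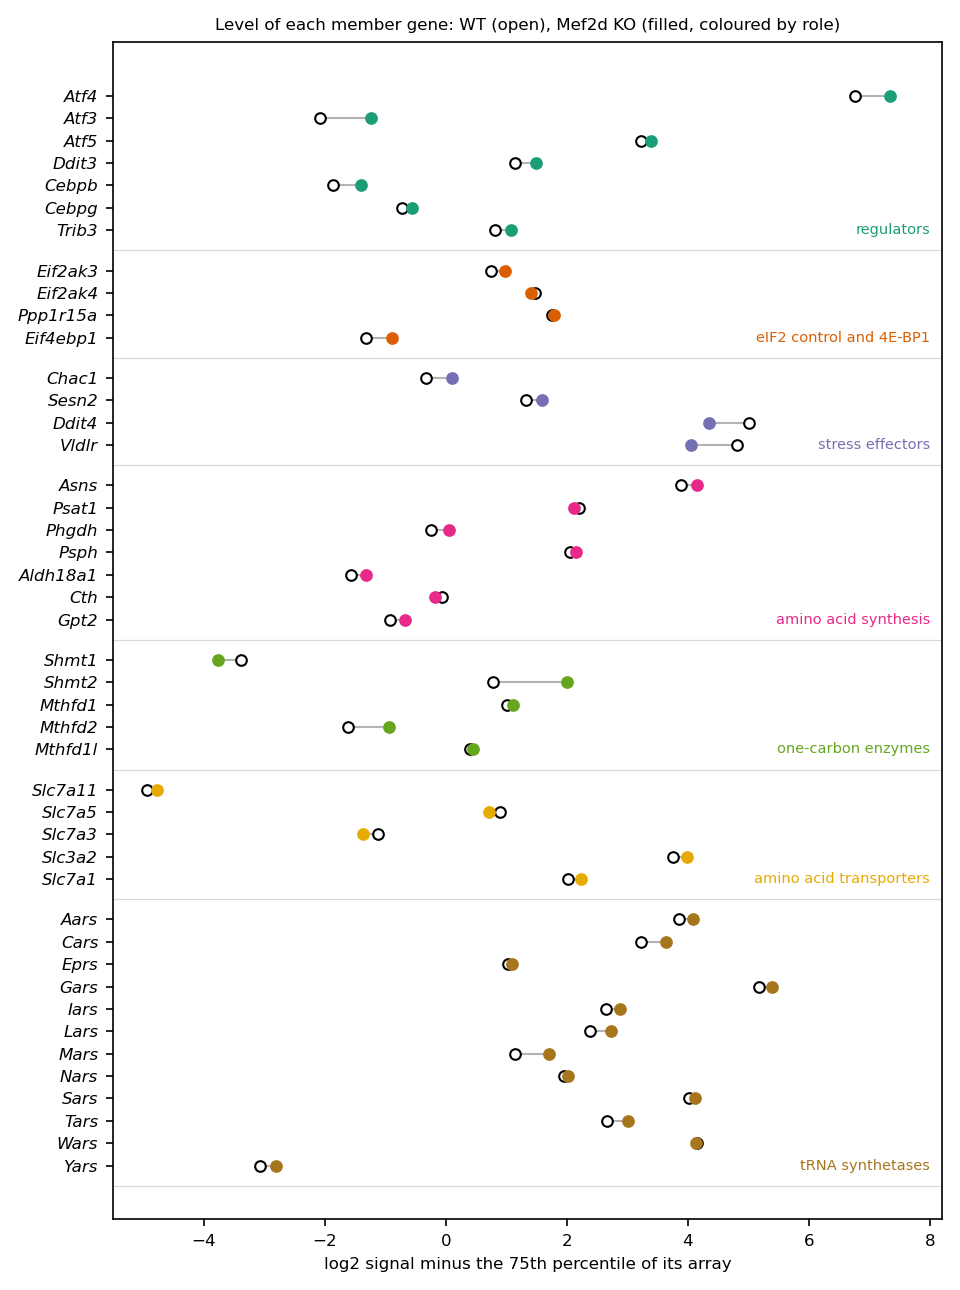
Level of each measured member on the WT array (open) and on the Mef2d KO array (filled), as log2 signal minus the 75th percentile of its array, grouped by role. The filled point lies to the right in 35 of 44 genes, furthest in Shmt2 and Atf3, and to the left most clearly in Vldlr and Ddit4.

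All 7 regulators had a positive difference, against 48.8% of all named genes, with a median of 0.34. At least 1.5-fold higher were 2 of them (2.08% of all named genes). Median scaling raises every difference by the same amount, so it could not change these signs. Atf4, the transcription factor at the centre of the response, stood at 6.76 in WT and 7.35 on the Mef2d KO array, a difference of 0.59 ± 0.20 or 1.51-fold. Its other probe stood at 1.83 and 2.33, a difference of 0.50 ± 0.20. Both probes of Atf4 were therefore higher on the Mef2d KO array by more than 2 errors, but only the first passed 1.5-fold. The value taken for Atf4 fell under 1.5-fold in 4 of 10 alternatives. Not all 10 could lower it. The deposited series table and the filters on dim probes leave it as it is, and median scaling raises every difference. The first probe stood at 0.58 with normexp background correction and 0.57 with the percentile over probes well above background. Both other rules for a gene's probe, which here average the 2 probes, gave 0.55.

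Atf3, a stress-induced factor of the same family that dimerizes with other bZIP proteins, stood at -2.07 in WT and -1.24 on the Mef2d KO array. The difference of 0.84 ± 0.21 was 1.79-fold, and 0.687 with normexp background. It ranked 148 from the top among the differences of all named genes. Cebpb, a C/EBP factor active in inflammation and a dimer partner of ATF4, stood at -1.86 and -1.41, a difference of 0.45 ± 0.21 that became 0.28 with normexp background.

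Ddit3, which encodes CHOP, a factor linked to cell death under lasting stress, stood at 1.15 in WT and 1.49 on the Mef2d KO array (0.34 ± 0.20). Trib3, a pseudokinase that restrains ATF4, differed by 0.27 from a WT level of 0.82, Cebpg, a small C/EBP partner of ATF4, by 0.18, and Atf5, an ATF4-like factor of mitochondrial stress, by 0.15. Each of these 4 regulators lay within 2 errors.

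The genes that act on eIF2 and on translation differed little. Eif2ak3, the gene of PERK, the kinase of the endoplasmic reticulum, stood at 0.748 in WT and 0.976 on the Mef2d KO array (0.23 ± 0.20). Eif2ak4, the gene of GCN2, which senses uncharged tRNA, stood at 1.47 and 1.41 (-0.07 ± 0.20, and 0.11 with median scaling). Ppp1r15a, the phosphatase subunit of the feedback, stood at 1.76 and 1.79 (0.03). Eif4ebp1, which encodes a repressor of cap-dependent translation and is a known ATF4 target, stood at -1.31 and -0.886, and its difference of 0.43 ± 0.21 was beyond 2 errors, but at 0.25 with normexp background it was not.

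In the other genes of eIF2 control, 11 of 13 measured had a positive difference, against 48.8% of all named genes. With median scaling 12 did, against 77.4% of all named genes. Of these 13 genes 0 passed 1.5-fold, and their median was 0.15. They are the eIF2 and eIF2B subunits, the remaining eIF2 kinases, Ppp1r15b, Dnajc3 and Nck1. The 3 furthest from 0 were Eif2s3x, an X-linked eIF2 subunit (-0.32), Dnajc3, an inhibitor of the eIF2 kinases and a chaperone (0.32), and Eif2s1, the subunit that is phosphorylated (0.30).

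The 4 stress effectors split into a pair on each side. Chac1, a glutathione-degrading enzyme, stood at -0.32 in WT and 0.11 on the Mef2d KO array (0.43 ± 0.20, or 1.35-fold). Sesn2, a leucine sensor that restrains mTORC1, stood at 1.33 and 1.60 (0.27 ± 0.20). Chac1 was beyond 2 errors and Sesn2 was not, and with normexp background Chac1 was not either (0.39).

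Vldlr, the receptor of very low density lipoprotein and of reelin, stood at 4.81 in WT and 4.05 on the Mef2d KO array. The difference of -0.77 ± 0.20 was 1.70-fold, and its other probe, at -2.10 and -3.13, gave -1.03 ± 0.21 or 2.04-fold. Ddit4, an mTORC1 inhibitor that also answers to hypoxia and to glucocorticoids, stood at 5.01 and 4.36, a difference of -0.65 ± 0.20 or 1.57-fold. Vldlr was lower by at least 1.5-fold under median scaling too (-0.59), whereas Ddit4 then stood at -0.47, and at -0.55 with normexp background. These were the members furthest below 0.

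**Figure D2:**
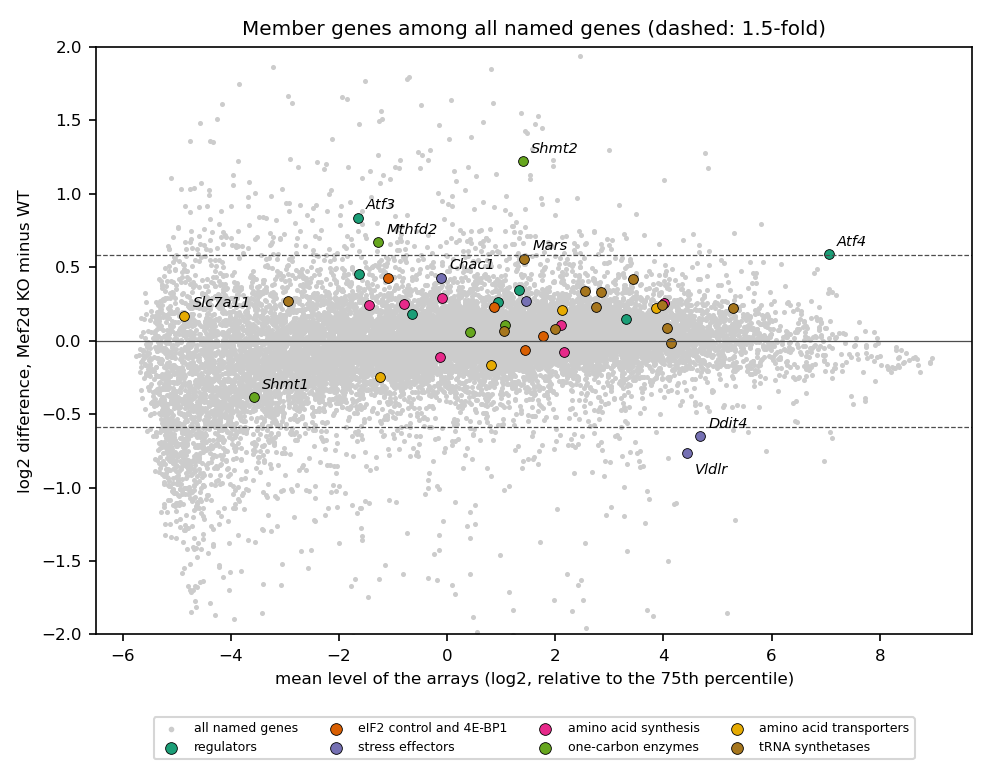
Log2 difference, Mef2d KO minus WT, against the mean level of the arrays, with all named genes in grey and the members coloured by role. Dashed lines mark 1.5-fold, and 59 genes beyond a difference of 2 in either direction are not drawn. Above a level of -3 most members lie just above 0, and the 2 at or below it lie on either side of 0, with Shmt2 at 1.22 on top and Vldlr at -0.77 at the bottom.

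The enzymes of serine synthesis showed no common step. Phgdh, the enzyme that commits a glycolytic intermediate to serine, stood at -0.24 in WT and 0.052 on the Mef2d KO array (0.29 ± 0.20), and its other probe gave 0.23. Psat1, the aminotransferase that follows, stood at 2.20 and 2.12 (-0.08 ± 0.20), and its other probe gave -0.15. Psph, the phosphatase that releases serine, stood at 2.05 and 2.16 (0.11 ± 0.20), and its other probe gave 0.22. Each of the 3 enzymes thus had probes of the same sign, and none was beyond 2 errors. With median scaling both Psat1 probes turned positive, at 0.099 and 0.033.

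Mueller glia, the cells known for serine synthesis, were followed by 16 markers, each read above background on either array. Of these 12 had a negative difference, against 51.2% of all named genes, and the median was -0.14. With median scaling 5 were negative and the median was 0.039. Their summed processed signal was 348660 in WT and 323954 on the Mef2d KO array. The 2 markers past 2-fold went opposite ways, Spc25 by -1.88 and Fabp7 by 1.45. Their part in the values of Phgdh, Psat1 and Psph was not tested.

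Outside serine, Asns, the asparagine synthetase and a classical ATF4 target, stood at 3.89 in WT and 4.15 on the Mef2d KO array (0.26 ± 0.20). Gpt2, the mitochondrial alanine aminotransferase, differed by 0.25 from a WT level of -0.92. Aldh18a1, which opens proline synthesis, differed by 0.24 from -1.56. Cth, the enzyme that makes cysteine from cystathionine, gave -0.11 and 0.13 by its 2 probes, and so had no settled direction. Of the 7 measured genes of amino acid synthesis 5 were on the positive side, against 48.8% of all named genes. Of the 7, 0 passed 1.5-fold and 0 were beyond 2 errors, with a median of 0.24.

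The mitochondrial enzymes Shmt2 and Mthfd2 stood apart from the other one-carbon enzymes. Shmt2, the mitochondrial serine hydroxymethyltransferase that splits serine into glycine and a one-carbon unit, stood at 0.784 in WT and 2.007 on the Mef2d KO array. Its difference of 1.22 ± 0.20 was 2.33-fold, rank 63 from the top among the 16187 named genes, and it lay between 1.17 and 1.40 over all settings tried. Mthfd2, the mitochondrial methylene-tetrahydrofolate dehydrogenase of the next step, stood at -1.61 and -0.938, a difference of 0.67 ± 0.21 or 1.59-fold (0.477, under 1.5-fold, with normexp background).

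Their counterparts did not share these sizes. Shmt1, the cytosolic form of SHMT2, stood at -3.38 in WT and -3.76 on the Mef2d KO array (-0.38 ± 0.23), and -0.13 with cyclic loess. Its other probe, not well above background on either array, gave 0.15 ± 0.705. Mthfd1, the trifunctional cytosolic enzyme, stood at 1.008 and 1.11 (0.11 ± 0.20). Mthfd1l, which closes the mitochondrial branch by releasing formate, stood at 0.397 and 0.454 (0.06 ± 0.20), and its other probe gave 0.096. So Shmt2 and Mthfd2 were beyond 2 errors, and Mthfd1, Mthfd1l and Shmt1 were not.

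The 25 other measured enzymes of serine, glycine, folate and sulfur amino acids gave 12 positive and 13 negative differences, with a median of -0.02. With median scaling 17 were positive. Over all named genes 48.8% were positive, or 77.4% with median scaling. Gcat, a mitochondrial enzyme that makes glycine from threonine breakdown, passed 1.5-fold (0.61 ± 0.20, from 0.525 in WT to 1.13). Aldh1l1, a cytosolic folate enzyme and astrocyte marker (-0.47), and Mtr, the methionine synthase (-0.46), were next in size and on the other side.

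Among the amino acid transporters no member passed 1.5-fold or lay beyond 2 errors. Slc3a2, the heavy chain shared by several exchangers, stood at 3.76 in WT and 3.98 on the Mef2d KO array (0.23 ± 0.20). Slc7a1, the arginine and lysine carrier, stood at 2.02 and 2.23 (0.21 ± 0.20). Slc7a3, another cationic carrier, stood at -1.11 and -1.36 (-0.25 ± 0.20), and -0.03 with normexp background.

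Slc7a5, the light chain of the large neutral amino acid exchanger, had probes of opposite sign, -0.17 ± 0.20 (0.01 with median scaling) and 0.35 ± 0.20, which differed from each other by 0.517. Slc7a11, the cystine and glutamate exchanger, was dim, at -4.94 in WT and -4.77 on the Mef2d KO array. Its difference of 0.17 ± 0.31 ranged from 0.0059 with normexp background to 0.62 with quantile normalization. Slc7a5 thus had no settled direction, and Slc7a11 no settled size.

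Of 16 other measured amino acid transporters 7 were on the positive side (48.8% of all named genes), or 11 with median scaling (77.4%). Past 2-fold downwards were 3 (1.74% of all named genes) and past 1.5-fold upwards 0 (2.08%), with a median of -0.052. Slc38a3, a glutamine transporter, stood at 3.54 in WT and 2.35 on the Mef2d KO array (-1.19 ± 0.20). Slc7a8, a neutral amino acid exchanger, stood at 0.354 and -0.658 (-1.01 ± 0.20), and Slc7a2, a cationic carrier, at -3.94 and -5.08 (-1.14 ± 0.29, and -0.49 with normexp background). Slc38a3 alone of them stayed past 2-fold with median scaling (-1.01, against -0.96 for Slc7a2 and -0.83 for Slc7a8) and with normexp background (-1.21, and -0.94 for Slc7a8). These 3 are not among the 45 genes.

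**Figure D3:**
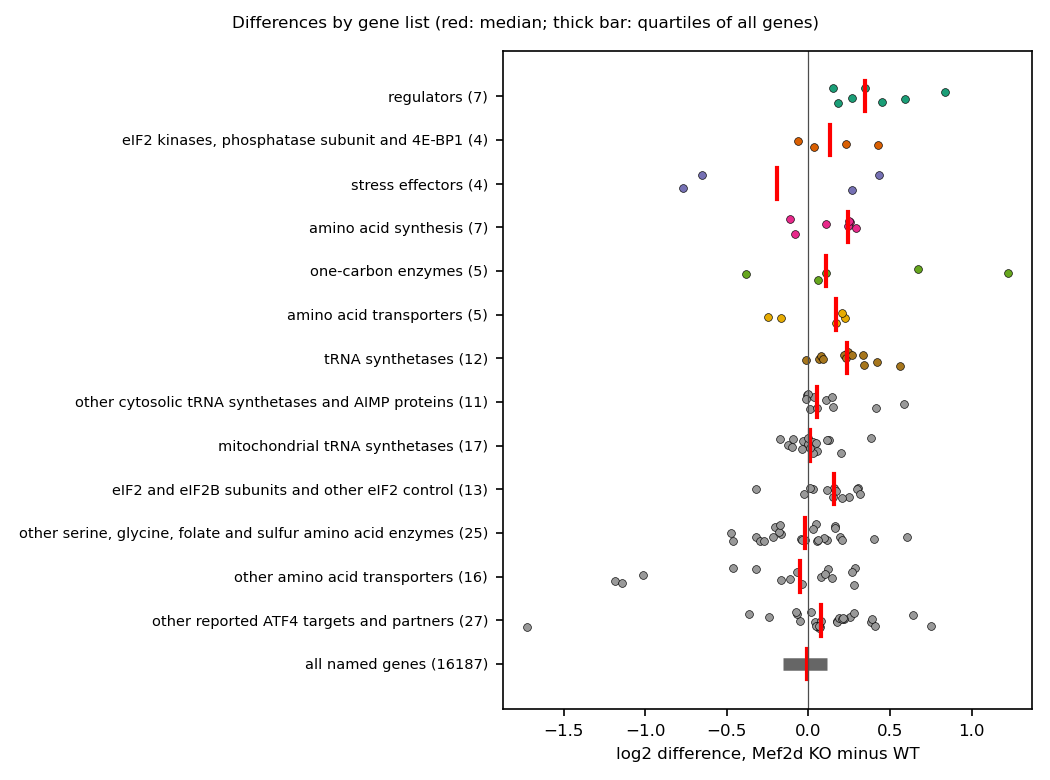
Log2 difference, Mef2d KO minus WT, of each measured gene by list, with the members in colour, the other pathway genes in grey and the list median in red. The member tRNA synthetases centre on 0.24, and the mitochondrial tRNA synthetases on 0.0071, near the median of all named genes.

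Nearly all of the listed cytosolic tRNA synthetases stood a little higher on the Mef2d KO array. Of the 12, which charge tRNAs with their amino acids, 11 had a positive difference, against 48.8% of all named genes. Past 1.5-fold were 0, with a median of 0.24 and differences from -0.012 to 0.56. Mars, the methionyl enzyme, stood at 1.15 in WT and 1.71 on the Mef2d KO array (0.56 ± 0.20, or 1.47-fold). Cars, the cysteinyl enzyme, stood at 3.22 and 3.64 (0.42 ± 0.20, or 1.34-fold). Mars and Cars were the 2 synthetases beyond 2 errors. With median scaling Mars and Cars both passed 1.5-fold (0.74 and 0.60), as did 4.35% of all named genes. All 12 were then positive, against 77.4% of all named genes. With normexp background Mars passed 1.5-fold (0.61), as did 1.31% of all named genes, while Cars stood at 0.39, within 2 errors.

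Lars, the leucyl enzyme, stood at 2.38 in WT and 2.72 on the Mef2d KO array (0.34 ± 0.20), and Tars, the threonyl enzyme, at 2.67 and 3.01 (0.33 ± 0.20). Yars (0.27), Aars (0.24), Iars (0.23) and Gars (0.22), the tyrosyl, alanyl, isoleucyl and glycyl enzymes, followed. Sars (0.088), Nars (0.076), Eprs (0.067) and Wars (-0.012, and 0.17 with median scaling), the seryl, asparaginyl, glutamyl-prolyl and tryptophanyl enzymes, lay nearest to 0. Neighbours in this order did not differ by more than their errors. The other probe of Aars was dim, at -4.97 in WT, and gave -0.23 ± 0.36.

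The synthetase family also holds genes outside the list. The other cytosolic synthetases and the scaffold proteins that bind them had 8 of 11 differences on the positive side (11 with median scaling) and a median of 0.056. Among them Hars, the histidyl enzyme, stood at 0.995 in WT and 1.58 on the Mef2d KO array (0.58 ± 0.20), Qars, the glutaminyl enzyme, differed by 0.41, and Rars by 0.15. The mitochondrial synthetases had 9 of 17 on the positive side (17 with median scaling), 0 past 1.5-fold and a median of 0.0071. Fars2 (0.38), Yars2 (0.20) and Aars2 (-0.17, and 0.0046 with median scaling) were the furthest from 0. Over all named genes 48.8% were positive, or 77.4% with median scaling. The difference between these lists was not tested.

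Other genes reported as ATF4 targets or partners gave a mixed picture. Of 27 measured, 21 had a positive difference (24 with median scaling), 2 passed 1.5-fold upwards and 1 passed 2-fold downwards, with a median of 0.078. Over all named genes 48.8% were positive (77.4% with median scaling), 2.08% passed 1.5-fold upwards and 1.74% passed 2-fold downwards. Nupr1, a small stress-induced chromatin protein, stood at 1.01 in WT and -0.711 on the Mef2d KO array (-1.73 ± 0.20, or 3.31-fold lower). Gdf15, a secreted stress hormone, stood at -2.23 and -1.59 (0.64 ± 0.21, and 0.42 with normexp background). Batf3 was dim and differed by 0.75 ± 0.30 (0.11 with normexp background). Nupr1 was thus on the side of Vldlr and Ddit4.

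**Figure D4:**
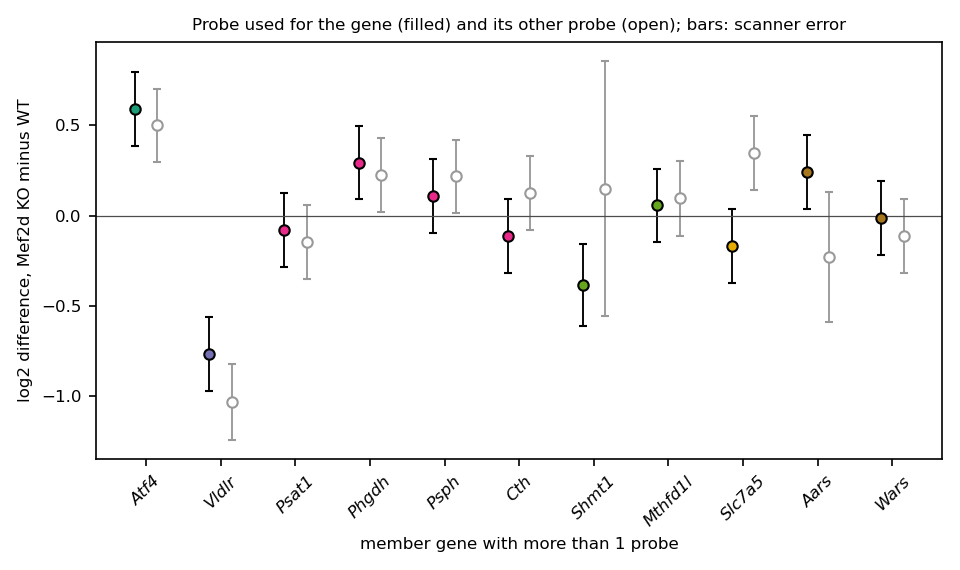
Log2 difference, Mef2d KO minus WT, of both probes of the 11 members with more than 1 probe, with the probe used for the gene filled, the other open and bars for the scanner error of a difference. Probes of 7 genes share a sign, among them Atf4 and Vldlr, while those of Cth, Shmt1, Slc7a5 and Aars do not.

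Probes of 1 gene give a check that does not rest on the scanner's error model. Of the 11 members with more than 1 probe, 7 had probes of the same sign, and the median gap between probes was 0.107. The larger gaps, of 0.533 for Shmt1, 0.517 for Slc7a5 and 0.470 for Aars, were larger than most differences in the list. In these gaps the other probe of Shmt1 was not well above background on either array, and that of Aars was dim. The other 33 members, Shmt2, Mthfd2, Atf3 and Ddit4 among them, rest on 1 probe each.

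The members' direction was read by level as well, since dim genes as a whole stood lower on the Mef2d KO array. At mean levels up to -3, 27.3% of all named genes had a positive difference, and only 2 members lay there, 1 of them positive, with a median of -0.11. Between levels of -1 and 1, 7 of 9 members were positive against 52.5% of all named genes, with a median of 0.23 against 0.011. Between 1 and 3 it was 13 of 15 against 60.8%, with a median of 0.21 against 0.033. Above 3 it was 8 of 11 against 58.3%, and between -3 and -1 it was 6 of 7 against 41.9%. The positive side held in each of these 4 bands.

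Members with and without the CARE letters in a promoter window were set side by side, and the difference between them was not tested. Of the 11 measured members with a match 10 had a positive difference, against 48.8% of all named genes. The exception was Vldlr, and the median of the 11 was 0.26. Of the 25 measured members with a window but no match 21 had a positive difference, and their median was 0.21. Shmt2, Mthfd2 and Atf4, 3 of the 4 members at least 1.5-fold higher, belong to the latter.

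Cell type markers differed between the arrays as well. The 10 rod markers, at levels of 4.87 to 8.50, were well above background on both arrays, as a retina should have. A negative difference was seen in 7 of them (3 with median scaling). The rod median was -0.051, with a range from -0.82 for Sag to 0.38 for Pde6b. Among 8 cone markers 7 had a negative difference (5 with median scaling), with a median of -0.298. Arr3 (-5.36) and Pde6h (-2.42) were the lowest, while Pde6c (-0.015) and Gngt2 (0.039) lay near 0. The bipolar cell markers had 9 of 10 negative differences (4 with median scaling), with a median of -0.14. Of 9 pigment epithelium markers 7 had a positive difference (median 0.17), or 8 with median scaling. Of 11 microglia and macrophage markers 10 had a positive difference (median 0.32), and also 10 with median scaling. Over all named genes 48.8% were positive, or 77.4% with median scaling. The summed signal of the microglia and macrophage markers was 29631 in WT and 34881 on the Mef2d KO array. Itgam alone held 19054 and 20476 of these sums, with a difference of 0.016. Summed signals are not scaled between the arrays, whose 75th percentiles were 807.5 and 857.9. The 5 measured red blood cell markers had positive differences too (median 0.34, summed signal 18248 and 24658). Of 14 lens markers 9 were at least 2-fold lower (summed signal 143614 and 58809), and of 10 endothelial markers 8 had a negative difference (22489 and 23035), or 4 with median scaling. Among these markers, Lim2 of the lens was not well above background on both arrays, Cd68 had no matched probe, and the part of these cell types in the differences of Cebpb, Atf3, Vldlr or any other member was not tested. In whole retina, fewer cells of a type and less RNA per cell cannot be told apart.

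Neither Mef2d probe was lower in Mef2d KO (0.43 ± 0.20 and 0.14 ± 0.21). The labels do not say whether they lie in the deleted part, so they do not check the label, and every direction is that of the array labelled Mef2d KO. Xist, the RNA of the inactive X chromosome, was at least 51.9-fold and 26.5-fold higher there by its matched probes, which were not well above background in WT. The sex of the animals and the genotype cannot be told apart with these 2 arrays.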

How the data were processed

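RNA of WT and Mef2d KO retina was hybridised to 1 one-colour array each, per the labels. The deposited intensity values were made by the authors with Agilent Feature Extraction, version 10.10.1.1, and are background-subtracted, per the file headers. The deposited series table repeats those intensities times 1.88 (WT) or 1.76 (Mef2d KO), uncentred, with column medians of 155.1 and 136.6. The labels do not say what these constants are.

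Signals were put on the log2 scale minus each array's 75th percentile over 59305 non-control spots (807.5 and 857.9). Outlier spots were left out (106 and 126). Of 55669 probes 48.9% were named by RefSeq accession through the GRCm38.p6 table, while the array design names mm9. A gene was its probe with the highest mean level. Every member is named, as are the 3 genes furthest from 0 in each other pathway list. Some items are not reported here. Members and lists were chosen with earlier results of these data known. Of the spots 75.5% were well above background in WT and 69.6% in Mef2d KO, and 0 were saturated. The number of arrays limits the precision. The median SD between spots of 1 probe was 0.082. Scripts, tested on simulated data, ran in Python 3.11.15 (pandas 2.3.3, numpy 2.4.6, matplotlib 3.10.9) and in R 4.3.3 (limma 3.58.1). Normexp correction (offset 50) started from median spot and background signals, as mean spot signals were not at hand.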

Additional observations from a re-analysis of the deposited data

How the results depend on the processing

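The members were recomputed under 10 alternatives: scaling on the median or on the 75th percentile of probes well above background, cyclic loess, quantile normalization, normexp background, the deposited series table, 2 other rules for a gene's probe and 2 other filters on dim probes. With median scaling 9 members were at least 1.5-fold higher and 1 lower, the median difference was 0.405 and 90.9% were positive. With normexp background 1 member was at least 1.5-fold lower. In the other alternatives both counts stayed within 1.5 times and the median within the SD between spots of 1 probe. The share positive there stayed within its 95% exact binomial interval. That interval takes the members as independent, which genes read on the same 2 arrays are not. It served only as a yardstick and covers neither animals nor arrays. Of 44 members 35 were positive and 4 negative under every setting in which they had a value, and 5 changed sign (Eif2ak4, Psat1, Cth, Slc7a5 and Wars). Of 438 values of single members over the alternatives 9 moved by more than the scanner error, those of Shmt1, Slc7a11, Slc7a5, Slc7a3 and Aars. The cause was not tested. Many of the 438 could not move, so the count is no measure of steadiness. The deposited series table and the filters on dim probes keep a member's difference. Scaling on the median or on another percentile adds 1 constant to every difference. Another rule for a gene's probe cannot change the 33 members with 1 probe. No paired analysis was possible because each group has 1 array. Slc7a11 and Shmt1 were dim, at WT levels of -4.94 and -3.38.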
